A study of Rattus norvegicus with 24 samples.

Results

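The genes described here are 10 motor and motor-subunit genes of axonal transport in the supraoptic nucleus of the rat hypothalamus, where large (magnocellular) neurosecretory neurons produce vasopressin (Avp) and oxytocin (Oxt) and project to the posterior pituitary. They are the kinesin-1 heavy chains Kif5a, Kif5b and Kif5c, the kinesin-1 light chain Klc1, the kinesin-3 motors Kif1a and Kif1b, the kinesin-2 motor Kif3a, the cytoplasmic dynein heavy chain Dync1h1, the dynein intermediate chain Dync1i1 and the large dynactin subunit Dctn1. Every probe set whose only gene symbol in the platform annotation was one of these was taken, which gave 21 of the 31099 probe sets of the array. The family was selected on, that is proposed with sight of, the dehydrated-against-control values of these arrays, and 1 array was left out because of its measured signals. The members' values in that contrast are therefore a description and carry no test.

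Kinesins walk along microtubules towards their plus ends, which in axons point to the terminals, and cytoplasmic dynein, activated by dynactin, carries cargo back to the cell body. Kinesin-1 is a pair of heavy chains with light chains that bind cargo, kinesin-3 motors carry synaptic vesicle precursors and dense core vesicles, and kinesin-2 works with an adaptor subunit. In magnocellular neurons, granules that hold vasopressin and oxytocin travel down the axon to the pituitary, and water deprivation is the usual stimulus for their release.

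Each array was hybridised with supraoptic nucleus RNA pooled from 5 Sprague Dawley rats. The male arrays comprised 5 dehydrated pools (3 days) and 5 control pools from rats 10 to 12 weeks old, and the female arrays comprised 4 euhydrated control pools and 5 pools taken after 72 hours of water restriction with food freely given; the labels give no age for the females. A further 5 arrays, from lactating rats (day 11), were not analysed here. The male and female sets differ in sex, RNA extraction, labelling and signal software, which cannot be told apart, and the submitters say that samples within a group may count as biological and technical replicates, so a p-value measures only the spread between these pools.

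Every array had the same trimmed mean, 100, as deposited, and the median signal of a probe set was 36.1 to 46.5 on the 18 arrays used. The median was 38.9 to 40.4 on male control and 36.1 to 38.3 on male dehydrated arrays. On female control and dehydrated arrays it was 43.1 to 46.5 and 39.6 to 45.7. Avp (3644 to 7666) and Oxt (3001 to 6698) were bright on all 18. The fifth female dehydrated array, called array 5 here, had an Avp signal of 50.6, an Oxt signal of 26.0, an Xist signal of 2.59 against 462 to 694 on the other female arrays, a signal of 242 for the Y-linked Eif2s3y against 0.102 to 8.94, and a median correlation of 0.815 with the other female arrays. It was left out of the values below. Called results that it changes, and female member values that it moves by more than the spread between arrays, are also given with it. Female control 2 also stood apart, with an Actb 3′ to 5′ signal ratio of 13.3 against 2.44 to 3.65 on the other female controls, and it held the lowest of the 8 female signals for 8 of the 16 member probe sets kept, against 18.9% of all probe sets kept. In pooled tissue RNA, fewer cells of a type and less RNA per cell cannot be told apart.

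Signals were scaled to a trimmed mean of 500, 32 was added, and log2 values were fitted with limma, which borrows an estimate of the spread from all probe sets. A probe set was kept when its mean lay above the 30th percentile, and it was called when its Benjamini-Hochberg adjusted p over the 21729 probe sets kept was below 0.05. On the female arrays 16 member probe sets of 9 genes were kept and 1 was called, for Kif5c, which was higher. Over all probe sets 1.77% were called higher and 1.19% lower. On the male arrays 18 member probe sets of 9 genes were kept, 4 were called higher and 2 lower. The background there was 8.32% higher and 9.38% lower. The 4 were those of Kif5a, Klc1, Dync1h1 and Dync1i1, and the 2 were both of Kif1a. Since the members were chosen with this contrast known, nothing is read from these counts. The median member difference was 0.11 on the log2 scale in females, against −0.03 over all probe sets, and −0.02 in males, against −0.04.

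**Figure D1:**
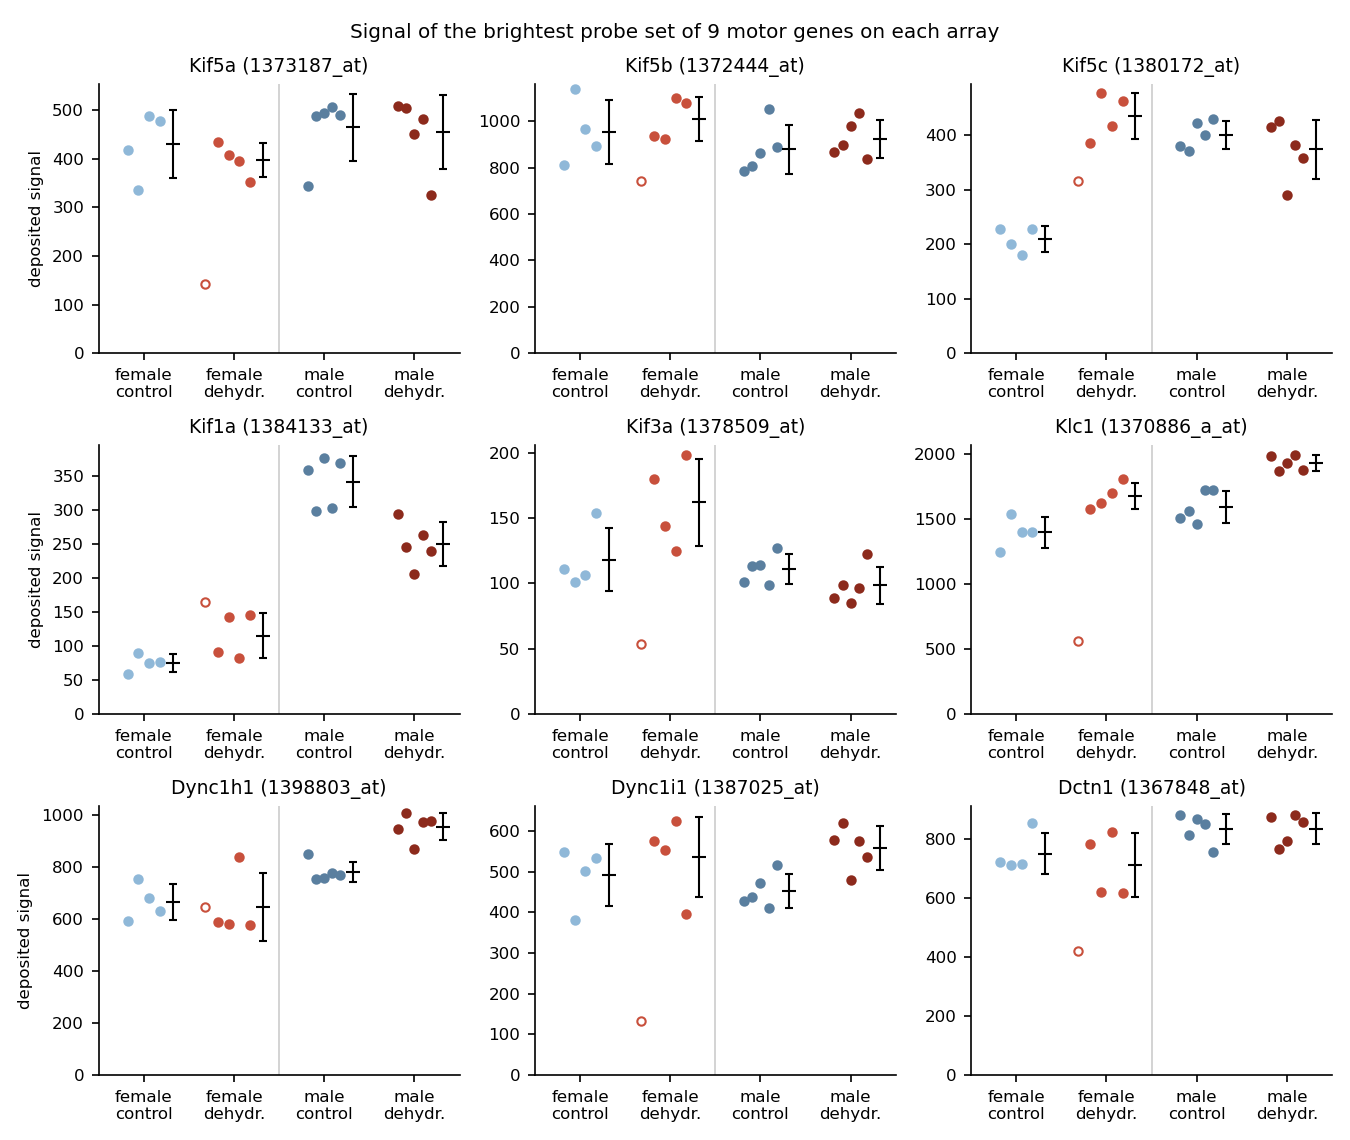
Deposited signal (linear axis from 0) of the brightest probe set of 9 member genes on each array, with 1 filled point per array, the mean and SD of each group as a black bar, and array 5 as an open point. Kif5c was 179.7 to 228 on the female control arrays and 385 to 478 on the female dehydrated arrays, while the other genes overlapped between female groups except Klc1.

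Kif5c, the kinesin-1 heavy chain found mainly in neurons, had the largest difference of the family in females. The female control arrays read 228, 200.4, 179.7 and 228. The 4 female dehydrated arrays read 385, 478, 416 and 462. Every dehydrated array was above every control array, and the group means were 209 ± 23.4 (SD, n = 4) in controls and 435 ± 42.7 (SD, n = 4) after dehydration. The difference was 1.04 ± 0.12 on the log2 scale (SE), a ratio of 2.05, which ranked 123rd from the top of 21729 probe sets. With any 1 of the 8 arrays left out it lay between 0.97 and 1.09. Array 5, whose signals go against its labels, read 316, and with it the difference was 0.95 and was not called.

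In males the groups of the same Kif5c probe set overlapped. The male control arrays read 381, 370, 423, 399.8 and 429. The male dehydrated arrays read 414, 425, 290.4, 382 and 358. The means were 401 ± 25.8 (SD, n = 5) in controls and 374 ± 53.8 (SD, n = 5) after dehydration, with a log2 difference of −0.11 ± 0.09 (SE). In order of mean signal, female controls came lowest, followed by male dehydrated, male control and female dehydrated arrays, and the last 3 groups overlapped with their neighbours in that order. The 2 sets were extracted and labelled differently, so this order across sets is no comparison of the sexes.

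The male change in Kif5c minus the female change was −1.14 ± 0.15 on the log2 scale (SE). In that difference 1 of 18 member probe sets, that of Kif5c, was called, beside 7 of 21729 probe sets (0.0322%), and as the members were chosen with both changes known nothing is read from it. Of the other 6 probe sets, 4 have 1 symbol each, Znf740, Wbp4, Igf1 and N4bp1, a list that was looked at after its values were seen. With any 1 of the 18 arrays left out the Kif5c difference was between −1.201 and −1.06. With array 5 added it was not called, and no probe set was (1707 had an unadjusted p below 0.05 in limma).

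The remaining Kif5c probe sets were below the filter. Probe set 1395997_at read 9.3 to 22.2 on male arrays and 6.14 to 32.3 on female arrays, and 1396154_at read 0.9 to 12.5 and 1.68 to 26.5. This held in both sets, so the Kif5c result rests on 1 probe set, 1380172_at. Neuronal and glial markers are set beside it. The summed signal of 15 pan-neuronal markers was 12090 to 13909 on female controls and 12784 to 15271 on female dehydrated arrays, with 0 of 15 called by limma (4 with an unadjusted p below 0.05), and that of 12 oligodendrocyte markers measured of 14 was 7788 to 11009 and 4327 to 7544, with 5 of 12 called lower. Among the magnocellular markers 3 of 9 were called higher in females, with a summed signal of 12455 to 13730 in controls and 14604 to 23458 after dehydration. This list includes Avp and Oxt, so its sum follows their signals as well. Both were highest on female dehydrated array 2 (7666 and 6698). Avp itself differed by 0.33 ± 0.19 (adjusted p = 0.38, limma) and Oxt by 0.40 ± 0.19 (adjusted p = 0.283, limma). Over the alternative settings, array 5 added among them, Avp ranged from −0.95 to 0.37 and Oxt from −1.01 to 0.44. The part of cell makeup in the Kif5c value was not tested.

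The 5 genes whose signals followed Kif5c most closely over the 18 arrays, with each set centred on its own mean, were Mpv17l, Eif4e3, Usp34, Csnk1a1 and Atp6v1h, of 11137 genes ranked. Pearson's r was 0.891 for Mpv17l and for Eif4e3, 0.885 for Usp34, 0.863 for Csnk1a1 and 0.814 for Atp6v1h. These points share arrays and the group difference between female arrays. The female log2 differences of the 5 were 0.63, 0.72, 0.34, 0.27 and 0.47 in that order, all smaller than that of Kif5c.

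Promoters are shown for Kif5c and Klc1 because they were the member genes whose kept probe sets did not overlap between female groups, 2 of 16 member probe sets where 12.3% of all probe sets had such groups. The sequences are RefSeq promoters of rat build GRCr8, from 250 bases before to 50 after the transcript start, and 9 of the 10 members were matched, Kif5a not. Capitals mark a full cyclic AMP response element, TGACGTCA, and the GC box GGGCGG, on either strand. The Kif5c promoter lies at chr3:54441057-54441356 on the plus strand, and the first of 3 overlapping Klc1 promoters at chr6:136644350-136644649 on the plus strand.
Kif5c: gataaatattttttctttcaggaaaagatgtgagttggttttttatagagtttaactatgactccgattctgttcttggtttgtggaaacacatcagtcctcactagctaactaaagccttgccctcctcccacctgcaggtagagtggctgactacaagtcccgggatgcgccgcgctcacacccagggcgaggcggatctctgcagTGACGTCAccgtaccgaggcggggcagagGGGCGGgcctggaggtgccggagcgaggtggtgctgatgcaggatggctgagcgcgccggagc
Klc1: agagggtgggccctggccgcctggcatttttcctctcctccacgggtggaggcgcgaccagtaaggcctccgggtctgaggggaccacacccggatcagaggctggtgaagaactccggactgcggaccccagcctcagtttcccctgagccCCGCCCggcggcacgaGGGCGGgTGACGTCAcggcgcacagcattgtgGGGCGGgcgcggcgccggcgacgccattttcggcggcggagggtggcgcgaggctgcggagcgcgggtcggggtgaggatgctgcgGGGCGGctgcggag
Both hold 1 TGACGTCA, which occurred in 612 of 33469 promoters of this length (1.83%) and in none of the other 7 member genes matched. GGGCGG occurred in 8 of the 9 member genes and in 33.1% of all promoters, and TATAAA in 2 of the 9, Kif5c and Kif3a, and in 14.2% of all. Kif5c, Klc1 and the motifs were chosen with the members' values known, so nothing is read from how the motif splits the members. Klc1 was not called in females, and a match describes the letters only.

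Kif5a, the heavy chain restricted to neurons, was read by 3 probe sets that did not move together. The brightest, 1373187_at, read 417, 336, 488 and 479 on female controls and 435, 408, 395 and 352 after dehydration. On male controls it read 343, 489, 495, 508 and 491.5, and after dehydration 510, 506, 452, 482 and 326. The groups overlapped in both sets, and the log2 differences were −0.10 ± 0.13 in females and −0.04 ± 0.12 in males (SE). With array 5 added the female difference was −0.39. Probe set 1375875_at was of the same sign, at −0.07 ± 0.21 and −0.11 ± 0.08 (SE).

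The third Kif5a probe set, 1382787_at, differed from these in males. It read 27, 20.6, 41.2, 36.4 and 36.2 on male controls and 58.4, 52.8, 45.7, 60.5 and 46.4 on male dehydrated arrays. The groups did not overlap, and the log2 difference was 0.63 ± 0.16 (SE), a ratio of 1.55. With any 1 of the 10 arrays left out it lay between 0.51 and 0.72. These signals are near the median of the array, and on the female arrays the probe set was below the filter, with 9.47 to 12.9 on controls and 14.4 to 26.6 after dehydration. The brightest probe set and this one are annotated to the same gene, and which transcripts each reads is not given in the sources used here.

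Kif5b, the kinesin-1 heavy chain present in most cell types, showed no difference beyond its spread. Its bright probe set 1372444_at read 813 to 1139 on female controls and 924 to 1101 after dehydration, and 784 to 1053 and 836 to 1036 in males. The log2 differences were 0.09 ± 0.12 and 0.07 ± 0.08 (SE), and neither sign was kept under quantile normalization (−0.00 and −0.03). The dimmer 1378096_at gave 0.34 ± 0.18 in females and −0.12 ± 0.13 in males (SE), and its female dehydrated arrays read 70.7, 71.6, 67.3 and 43.6.

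Klc1, the light chain that links kinesin-1 to cargo, had 4 probe sets, and 1370886_a_at was higher after dehydration in both sets. Female controls read 1248, 1542, 1405 and 1400.2, and female dehydrated arrays 1578, 1625, 1700.1 and 1808. Male controls read 1512, 1559, 1459.7, 1724 and 1724, and male dehydrated arrays 1986, 1873, 1931, 1996 and 1877. In neither set did the groups overlap. The log2 difference was 0.26 ± 0.11 in females and 0.28 ± 0.05 in males, a ratio of 1.21, and only the male value was called. Array 5 read 559, and with it the female difference was −0.05; under quantile normalization it was 0.13.

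The other Klc1 probe sets were of mixed sign, and none was called. Probe set 1399126_at read 156 to 207 on male controls and 109.9 to 177 after dehydration, a log2 difference of −0.31 ± 0.12 (SE), and −0.12 ± 0.15 in females. Probe set 1388125_a_at gave −0.21 ± 0.40 and −0.08 ± 0.27, and 1375229_at gave 0.22 ± 0.17 in males and was below the filter in females. Female control 2 read lowest of the female controls on all 3 (90.4, 21.6 and 4.90). Without it the female differences of 1399126_at and 1388125_a_at were −0.26 and −0.66, and that of 1370886_a_at was 0.31.

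Kif1a, the kinesin-3 motor that carries dense core and synaptic vesicle precursors, had 3 probe sets, of which 2 had values of opposite sign in the 2 sets. On 1384133_at the female controls read 58.5, 90.1, 75.2 and 75.9, and the female dehydrated arrays 90.9, 143, 82.2 and 145. The male controls read 359, 299, 378, 304 and 370, and the male dehydrated arrays 295, 246, 207, 264 and 240.2. The male groups did not overlap, and all 5 dehydrated arrays were below all 5 controls. The log2 difference was −0.44 ± 0.09 in males, a ratio of 0.735, and lay between −0.50 and −0.38 with any 1 array left out. The male value was not called in 1 fit of all 4 groups. In females the difference was 0.55 ± 0.20, where the groups overlapped and the probe set was not called. The male change minus the female change was −0.998 ± 0.22 (SE) and was not called. In order of mean signal this probe set was lowest in female controls (74.9), then female dehydrated (115), male dehydrated (250.3) and male control arrays (342), again across sets made differently.

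Kif1a was also read by 1397505_at, which gave the same signs with less precision. The male controls read 55.5, 50.5, 58.1, 34.7 and 69.2 and the male dehydrated arrays 32.5, 39.6, 22.8, 42.8 and 30.6. The groups overlapped through the fourth control array, and the log2 difference was −0.58 ± 0.17 (SE), called in the fit of all 10 arrays but in 3 of the 10 fits with 1 array left out. The female difference was 0.46 ± 0.36 (SE) and fell to 0.06 without female control 2, which read 4.75. The third probe set, 1382785_at, gave 0.13 ± 0.17 in females and 0.08 ± 0.13 in males, so only in females did all 3 have the same sign. The Actb 3′ to 5′ signal ratio, a sign of RNA and labelling quality, was 5.23 to 7.12 on male controls and 6.83 to 8.998 on male dehydrated arrays. These are the arrays of every male value given here, and its part in the Kif1a and other male values was not tested.

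**Figure D2:**
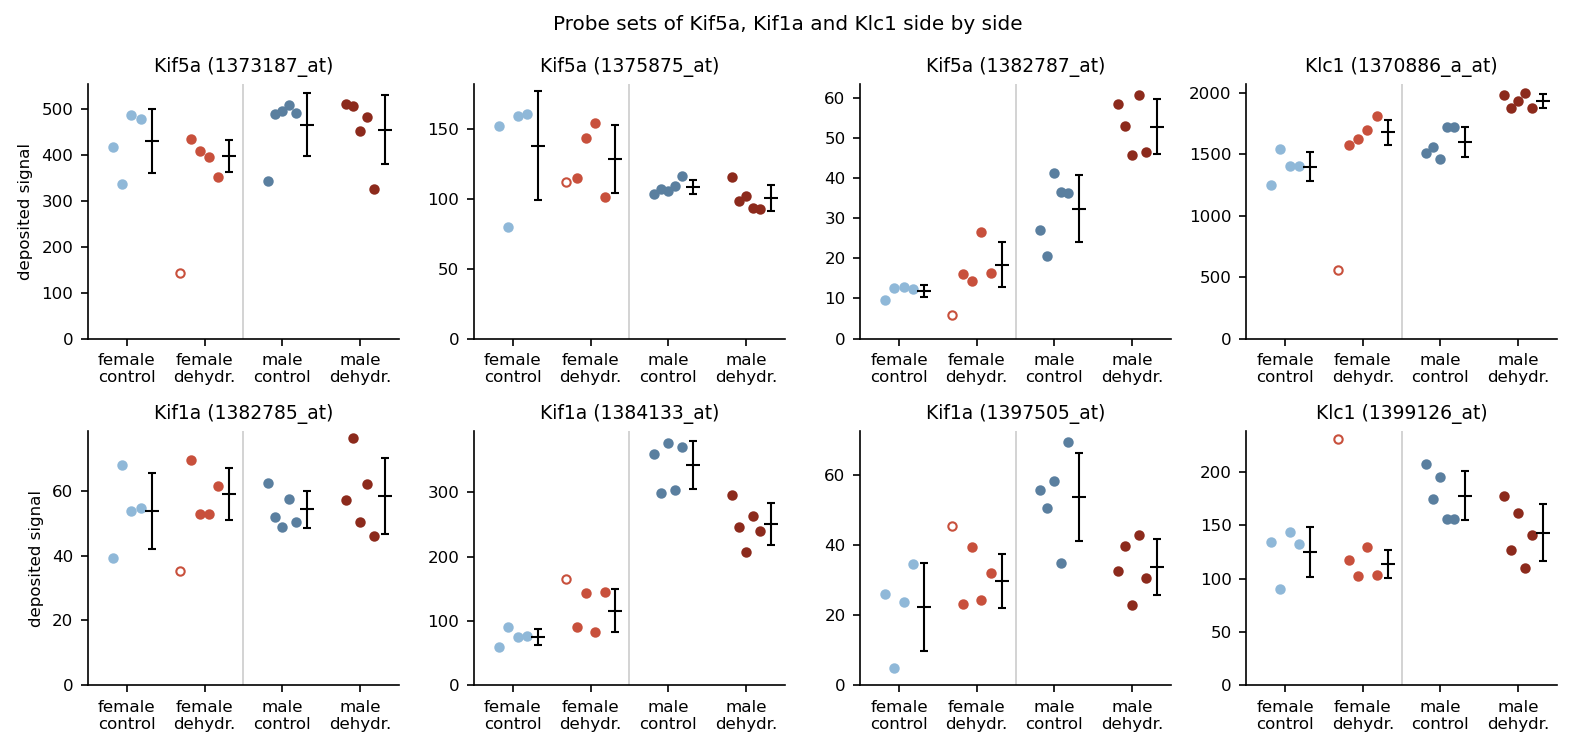
Deposited signal (linear axis from 0) of the probe sets of Kif5a and Kif1a and of 2 of the 4 of Klc1 on each array, with 1 filled point per array, mean and SD as black bars, and array 5 open. Within a gene the probe sets differ in direction, as in males for Kif5a, where 1382787_at is higher after dehydration while 1373187_at and 1375875_at overlap between groups.

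Kif1b, a kinesin-3 motor that carries mitochondria and synaptic vesicle precursors, could not be described. Its only probe set with a single symbol, 1389863_at, read 1.2 to 14.3 on male arrays and 4.84 to 31.1 on the 8 female arrays, below the filter in both. A further 4 probe sets name Kif1b among several symbols and were not used. Kif3a, the kinesin-2 motor, was read by 2 probe sets. On 1378509_at the female controls read 111, 101, 106 and 154 and the dehydrated arrays 180.02, 144, 125 and 198, which overlapped, with a log2 difference of 0.43 ± 0.17 (SE). In males that probe set gave −0.17 ± 0.10, and 1377025_at gave 0.11 ± 0.15 in females and 0.10 ± 0.17 in males. With array 5 added the female differences were 0.14 for 1378509_at and −0.21 for 1377025_at. None of these was called.

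The dynein heavy chain Dync1h1, which holds the motor domain, was higher after dehydration on the male arrays. The male controls read 849, 755, 757, 774 and 769, and the male dehydrated arrays 946, 1007, 868, 972 and 975. Every dehydrated array was above every control array, with means of 781 ± 38.8 and 953 ± 52.5 (SD, n = 5 each). The log2 difference was 0.29 ± 0.05 (SE), a ratio of 1.22, between 0.27 and 0.32 with any 1 array left out and 0.19 under quantile normalization, and it was not called in 1 fit of all 4 groups. The female controls read 593, 752, 681 and 629 and the female dehydrated arrays 586, 581, 839 and 576. These overlapped, 3 of the 4 dehydrated arrays lay below every control, and the log2 difference was −0.05 ± 0.14 (SE).

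Dync1i1, the intermediate chain that binds dynactin and is found mainly in neurons, was also higher in males. The male controls read 427, 436.5, 472, 412 and 515.5, and the male dehydrated arrays 579, 620.2, 479, 574 and 537. The groups overlapped in 1 array of each, and the log2 difference was 0.30 ± 0.08 (SE), a ratio of 1.23, also not called in 1 fit of all 4 groups. In females the controls read 548, 381, 501 and 534 and the dehydrated arrays 575, 552, 623 and 396, a log2 difference of 0.12 ± 0.16 (SE) that was 0.01 without female control 2 and 0.26 without female dehydrated array 4. The lowest array of each female group was the one with the highest Actb 3′ to 5′ ratio in that group (13.3 and 5.30). The male change minus the female change was 0.34 ± 0.14 for Dync1h1 and 0.18 ± 0.17 for Dync1i1, and neither was called.

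Dctn1, the dynactin subunit that binds dynein and microtubules, showed no difference beyond its spread in either set. The male controls read 757 to 879.6 and the male dehydrated arrays 765 to 882.5, with means of 834 ± 49.8 and 834 ± 52.3 (SD, n = 5 each) and a log2 difference of 0.00 ± 0.06 (SE). The female controls read 723, 711, 714 and 854 and the dehydrated arrays 782, 619, 824 and 616, a log2 difference of −0.09 ± 0.13 (SE). Over the male arrays, groups did not overlap for 4 member probe sets, those of Kif5a (1382787_at), Klc1 (1370886_a_at), Dync1h1 and Kif1a (1384133_at), where 12.7% of all probe sets had such groups. Cell type markers are set beside the male values. The summed signal of the pan-neuronal markers was 13469 to 14861 on male controls and 15620 to 16627 on male dehydrated arrays. Of these 15 markers 5 were called higher, and by sign 10 lay above 0 and 5 below. Of 9 magnocellular markers 3 were called higher and 1 lower, with sums of 13719 to 16614 on controls and 16095 to 18812 after dehydration. Mural and meningeal markers went down, with 11 of 15 called lower, 1 higher, and sums of 9398 to 15891 and 5497 to 11143. Of the other lists, 3 of 11 astrocyte, 5 of 10 microglial, 2 of 2 blood, 0 of 12 oligodendrocyte and 0 of 11 endothelial markers were called lower. The part of cell makeup in the male motor values was not tested.

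**Figure D3:**
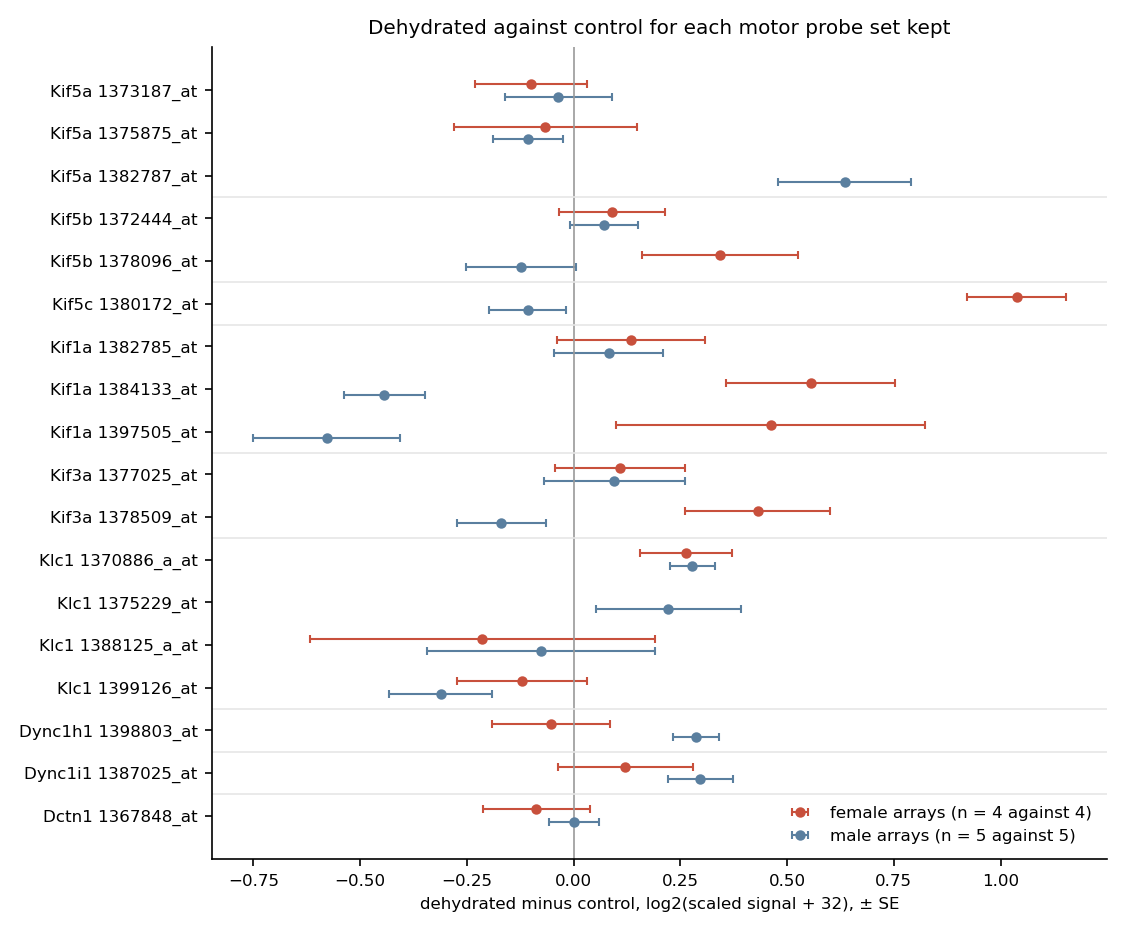
Dehydrated minus control on the log2(scaled signal + 32) axis, with bars of ± 1 SE, for each member probe set kept, in females (red, 4 arrays against 4) and males (blue, 5 against 5). Kif5c stands at 1.04 in females and −0.11 in males, and the Kif1a probe sets 1384133_at and 1397505_at lie above 0 in females and below 0 in males.

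Agreement in sign between probe sets of a gene was counted. Of the 5 genes with more than 1 probe set kept, Kif5a, Kif5b, Kif1a, Kif3a and Klc1, the signs agreed for 4 in females (not Klc1) and for 0 in males. Sign alone was counted, also for differences smaller than their SE. Within groups, Pearson's r between probe sets over female arrays was 0.81 for Kif5a, −0.73 for Kif5b, −0.63 to 0.37 for Kif1a and −0.12 for Kif3a. Over male arrays it was 0.23 to 0.54, −0.07, 0.14 to 0.69 and −0.59 in that order. Without the filter, which adds Kif5c, these counts were 3 of 6 and 0 of 6. The widest span within a gene was 0.74 on the log2 scale among probe sets kept, for Kif5a in males, and 1.18 without the filter, for Kif5c in females. Probe sets of a gene share their arrays, so no test was made.

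The wider transport machinery was described through 127 other genes in 8 lists, 100 of which were measured, each by its brightest probe set with a single symbol. In females 1 rose, 1 fell and 98 did not pass, where 1.77% of all probe sets were called higher and 1.19% lower. In males 17 rose, 8 fell and 75 did not pass, where 8.32% of all probe sets were called higher and 9.38% lower. The female counts and the male count that fell are near or below those shares. The lists were drawn up with earlier results of these data known. The shares also cover all probe sets kept, not only the brightest of each gene. The 17 that rose in males are therefore not read as an excess. The female pair were Pafah1b1 (Lis1), a dynein regulator needed for the start of transport, and Nde1, its partner. Pafah1b1 rose by 0.55 ± 0.12 in females (SE, adjusted p = 0.0333, limma) and by 0.57 ± 0.08 in males (adjusted p = 0.0002), from 107 to 145 on female controls to 192 to 205 after dehydration, and from 161 to 177 to 239 to 305 in males. The groups did not overlap in either set. In females the call was lost when any of controls 1, 3 and 4 or dehydrated arrays 1, 2 and 4 was left out (adjusted p = 0.0342 to 0.0993 over the 8 fits). Nde1 fell by 0.97 ± 0.17 in females (adjusted p = 0.0133), from a mean signal of 49.4 to 22.0, and by 0.46 ± 0.15 in males (adjusted p = 0.0405), where it passed in 3 of the 10 fits with 1 array left out. In females it passed in all 8 such fits. With array 5 added neither passed in females (adjusted p = 0.47 for Pafah1b1 and 0.485 for Nde1). Oligodendrocyte markers, given above, were also lower on the female dehydrated arrays, and their part was not tested.

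Some dynein and dynactin subunits rose in males, on the arrays where the pan-neuronal sum was also higher. The part of cell makeup was not tested. Over all probe sets 8.32% were called higher in males and 9.38% lower. Of 8 other cytoplasmic dynein subunits measured, 3 rose, none fell by this test (4 had an unadjusted p below 0.05 in all), and the median was 0.11 against −0.04 over all probe sets. By sign 6 lay above 0 and 2 below, from −0.59, which was not called, to 0.31. Dync1li1, a light intermediate chain, rose by 0.31 ± 0.06 (SE, adjusted p = 0.00301, limma), from 213 to 226 on controls to 258 to 292.5 after dehydration, with no overlap. Dynlt3 rose by 0.28 ± 0.07 (adjusted p = 0.013) and Dynlrb1 by 0.19 ± 0.05 (adjusted p = 0.0215, passing in 7 of 10 fits with 1 array left out), both light chains. Of 10 other dynactin subunits 4 rose and 0 fell, with a median of 0.16. These were Dctn6 (0.24 ± 0.05, adjusted p = 0.00603), Actr1a of the actin-related filament (0.23 ± 0.05, adjusted p = 0.00769), the capping subunit Capza1 (0.26 ± 0.07, adjusted p = 0.0176) and Actr1b (0.21). Under quantile normalization and the other settings Dctn6 ranged from 0.15 to 0.32 and passed in 7 of 9. Dynlrb1 ranged from 0.12 to 0.27 and passed in 6 of 9. In females 0 of these 18 genes passed, with medians of 0.17 for dynein and 0.07 for dynactin (limma, 2 and 0 with an unadjusted p below 0.05).

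Among 11 dynein regulators measured in males, 3 rose and 2 fell, where 8.32% of all probe sets were called higher and 9.38% lower. Besides Pafah1b1, the Lis1 partner Ndel1 rose by 0.34 ± 0.08 (SE, adjusted p = 0.0104, limma) and the cargo adaptor Bicd2 by 0.27 ± 0.06 (adjusted p = 0.00675). Ninl, a centrosomal protein that binds dynein, fell by 0.47 ± 0.11 (adjusted p = 0.00911), from 47.9 to 64.5 on controls to 35.4 to 44 after dehydration, and Nde1 fell with it. In females Ninl was at −0.79 ± 0.19 with no overlap between groups and missed the threshold (adjusted p = 0.0513).

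Of 15 other kinesin chains measured in males, 4 rose and 2 fell, with a median of −0.07, beside 8.32% higher and 9.38% lower over all probe sets, so that the 2 that fell are near the background. Kif2a, a kinesin that takes microtubule ends apart, rose by 0.34 ± 0.06 (SE, adjusted p = 0.00182, limma), from 162 to 177 on controls to 206 to 223 after dehydration. The kinesin-2 subunit Kif3c rose by 0.27 ± 0.05 (adjusted p = 0.00326) and the kinesin-2 adaptor Kifap3 by 0.19 ± 0.05 (adjusted p = 0.0229), and Kif21a stood at 0.28 and was also called. Kifap3 passed in 6 of 9 fits with other processing settings (0.10 to 0.27) and in 8 of 10 fits with 1 array left out. The minus-end kinesin Kifc2 fell by 0.39 ± 0.08 (adjusted p = 0.00492), from 231 to 308.5 to 187 to 229, and Kif1c, a widely expressed kinesin-3, fell by 0.42 ± 0.12 (adjusted p = 0.0244) and passed in 4 of 10 such fits. In females 0 of 15 passed (limma, 2 with an unadjusted p below 0.05), and Kifc2 stood at −0.48 ± 0.13 with no overlap between groups (adjusted p = 0.0652).

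Of 26 kinesin adaptors and cargo linkers measured in males, 3 rose and 0 fell, where 8.32% of all probe sets were called higher and 9.38% lower. The 3 that rose are near that background. They were Tor1a, an ATPase of the endoplasmic reticulum (0.56 ± 0.08, SE, adjusted p = 0.000203, limma), Zfyve27, an endoplasmic reticulum protein that binds kinesin-1 (0.40 ± 0.10, adjusted p = 0.0124), and Mapk8ip1, a scaffold that binds kinesin light chain (0.29 ± 0.04, adjusted p = 0.000512). Of 9 actin-based motors and their linkers 2 fell, where 9.38% of all probe sets were called lower. Myo5c fell by 1.00 ± 0.22 (adjusted p = 0.00552, limma) and Myo6 by 0.26 ± 0.08 (adjusted p = 0.0471, limma). Myo6 passed in 1 of 10 fits with 1 array left out. Of 15 genes of intraflagellar transport, the traffic within cilia, 2 fell, near the background of 9.38% called lower, Ift88 by 0.32 ± 0.09 (adjusted p = 0.0284) and Ift122 by 0.32 ± 0.10 (adjusted p = 0.0357), which passed in 5 and 4 of 10 such fits. Of the 4 ependymal and choroid plexus markers measured of 9, which mark ciliated cells and their neighbours, 2 were also called lower in males, with sums of 403 to 701 on controls and 267 to 412 after dehydration, and their part was not tested. Of 6 mitotic kinesins measured of 14, 0 passed in males (limma, 2 with an unadjusted p below 0.05) and 0 in females (0 with an unadjusted p below 0.05). Their median was 0.31 in each set, against −0.04 in males and −0.03 in females over all probe sets. By sign 5 of the 6 lay above 0 in males and 6 in females. No gene of these 4 lists passed in females, where 4 adaptors, 0 mitotic kinesins, 0 actin-based motors and 2 intraflagellar genes had an unadjusted p below 0.05 (limma).

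**Figure D4:**
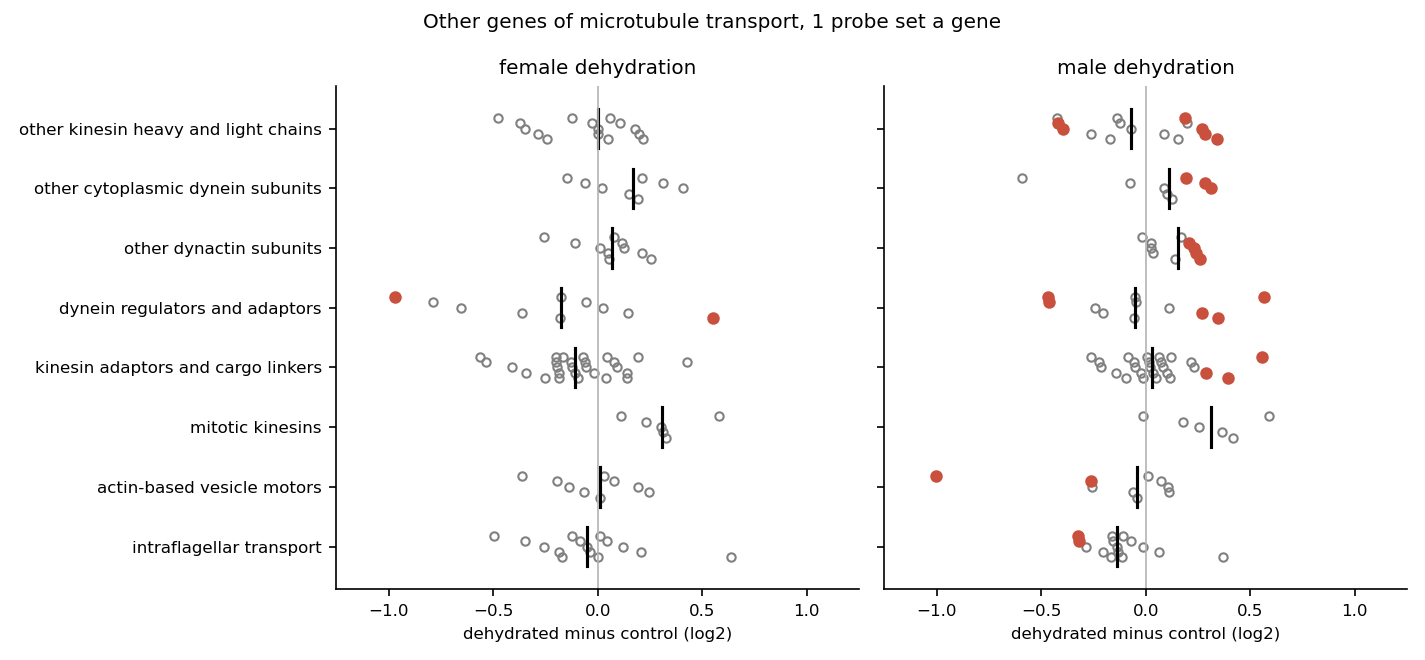
Dehydrated minus control (log2) of the other transport genes, 1 point a gene, in females (left) and males (right), with called genes filled red, the rest open and the list median as a black line. In females the filled points are Pafah1b1 at 0.55 and Nde1 at −0.97, and in males 17 filled points lie above 0 and 8 below.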

How the data were processed

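Per the labels, the authors extracted male RNA with QIAzol and RNeasy columns, labelled it with MessageAmpII and computed signals with GCOS 1.2, and extracted female RNA with Trizol, labelled it by the Affymetrix protocol and computed signals with MAS5. The deposited values are probe set intensities on a linear scale, and they came to a trimmed mean of 100 on every array. The number of arrays limits the precision. Genes were taken from the platform annotation, in which 20832 probe sets have 1 symbol, 436 several and 9831 none, and 57 array controls were left out.

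Arrays were scaled to a trimmed mean of 500 (2% cut at each end) and fitted as log2(value + 32) in R 4.3.3 with limma 3.58.1 (eBayes with trend), within each array set and, for the difference, over all 18 arrays. The fits were tested on simulated data. The alternatives were quantile normalization, median centring, offsets of 1 and 100, no filter or the 50th percentile, array weights, no trend, 1 fit of all groups, array 5 added, and each array left out in turn.

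The members and gene lists were chosen with earlier results of these data known. Named besides the members are, of each list, up to 3 rising and 3 falling genes with the smallest p in each set, Avp and Oxt, and the 5 genes most like Kif5c, whose brightest probe set had the largest mean change of the members. Actr1b and Kif21a complete their counts and were named after their values were seen.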

Additional observations from a re-analysis of the deposited data

Results flagged for a closer look

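In a group of 4 or 5 arrays, 8 of 68 member groups had 1 array far from the rest, where chance gives about 1 in 20. On female control 2, Kif5a 1375875_at read 79.4 against 152 to 160.5 on the other controls, and Klc1 1399126_at read 90.4 against 133 to 143. Female control 4 read 854 for Dctn1 against 711 to 723. Female dehydrated array 3 read 839 for Dync1h1 against 576 to 586, and female dehydrated array 4 read 43.6 for Kif5b 1378096_at against 67.3 to 71.6. Male control 1 read 343 for Kif5a 1373187_at against 489 to 508, and 849 for Dync1h1 against 755 to 774. Male dehydrated array 5 read 326 for Kif5a 1373187_at against 452 to 510.

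The male change minus the female change was −1.14 on the log2 scale for Kif5c, which passed the threshold in the fit over all 18 arrays. The members were chosen with these changes known, so this is a description. Kif1a 1384133_at (−0.998) and 1397505_at (−1.04) are listed because every dehydrated array lay above the mean of its controls in females and below it in males. These differences did not pass the threshold in the fit and have no other test.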

How the results depend on the processing

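No paired analysis was possible because the control and dehydrated arrays share no replicate numbers in the labels. No called value changed sign under an alternative. Values that were not called did in places, such as the female differences of Klc1 1370886_a_at (0.26, −0.05 with array 5) and Dync1i1 (0.12, −0.27 with array 5). The called probe sets in females (643) were 1709 with array weights, 290 without the trend, 2322 in 1 fit with all 4 groups and 1 with array 5. With 1 array left out they were 210 to 886, the lower counts coming without control 1 (256), 3 (210) or 4 (346) or dehydrated array 1 (222), 2 (246) or 4 (334). Those in males (3846) were 2270 in the fit with all 4 groups, and 2839 to 4149 with 1 array left out. With arrays centred on the median the split of higher to lower calls went from 1808 and 2038 to 2710 and 1091 in males, and from 384 and 259 to 348 and 114 in females.

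The member probe sets called in females (1) were 3 in the fit with all 4 groups and 0 with array 5. They were 1 in every fit with 1 array left out. In males (6) they were 2 in the fit with all 4 groups and 5 to 6 with 1 array left out. The list genes called in females (2) were 1 with the 50th percentile filter, 7 with array weights, 1 without the trend, 10 in the fit with all 4 groups, 0 with array 5 and 1 to 5 with 1 array left out. In males (25) they were 16 in the fit with all 4 groups and 17 to 26 with 1 array left out. Over all 139 probe sets of the list genes in males, 21 were called higher and 10 lower. The probe sets called in the difference between sets (7) were 20 with quantile normalization, 12 with median centring, 11 with an offset of 100, 2 without a filter, 114 with array weights, 0 with array 5 and 1 to 55 with 1 array left out, and the member probe sets among them (1) were 2 with array weights, 0 with array 5 and 1 to 2 with 1 array left out. Of the members' single values under these alternatives 1094 moved by less than the spread between arrays and 15 by more. Dim probe sets, near or below the filter, limit what can be said of Kif1b and of the further Kif5c probe sets.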
